A study of Homo sapiens with 6 samples.

Results

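The genes described here are 3 FOXO transcription factors (FOXO1, FOXO3 and FOXO4) and 7 genes known as FOXO targets or as brakes on growth and cell division (KLHL24, CCNG2, HBP1, PIK3IP1, SESN1, SESN3 and YPEL3). They were taken by symbol from a table of 28395 genes, and all 10 were found. The table comes from HCC827, an established line of human lung adenocarcinoma cells whose EGFR is mutated to an active form, and was made to ask how the transcriptome responds when EGFR is inhibited. There were 3 libraries of cells treated with the vehicle DMSO and 3 of cells treated with erlotinib, a small molecule that blocks the EGFR kinase, at 1 μM, all for 24 h. The labels name no further allele or agent for either condition. They do not say whether the 3 libraries of a condition came from separate cultures. The methods state of the experiments in general that they were done repeatedly and independently, without tying this to the libraries. The p-values thus measure the spread between these libraries, which may be technical.

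FOXO factors are forkhead transcription factors that turn on genes of cell cycle arrest, nutrient sensing, autophagy and cell death. When growth factor receptors such as EGFR signal through PI3K, the kinases AKT and SGK phosphorylate FOXO proteins, 14-3-3 proteins bind them, and they are held in the cytoplasm. When that signal stops, FOXO proteins return to the nucleus, so their activity is set largely at the level of the protein, which RNA-seq does not measure.

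Values are given as signal, which is the number of reads on a gene divided by the size factor of its library. The libraries held 20858083, 24641819 and 21172884 reads on genes in DMSO, and 21944007, 20760204 and 21678395 reads with erlotinib. Log2 fold changes are those of erlotinib relative to DMSO on the scale of log2(signal + 1). The added 1 draws those of genes with few reads toward 0. Means of log2 values can still exceed the ratio of mean signals, as for PIK3IP1 (17.0-fold against 16.4). The changes were tested with limma over the 14215 genes whose signal averaged 10 or more across the 6 libraries. All 10 genes passed this minimum in both conditions, the lowest mean being 46.3 for PIK3IP1 in DMSO. Errors after ± are SD over the 3 libraries of a condition.
The cells carried the markers of lung epithelium in both conditions. Of 8 such markers all 8 were detected, with a summed signal of 258517 to 290718 in DMSO and 198679 to 204110 with erlotinib, the most abundant being the keratin KRT7. The 4 keratins among them fell, by 0.39 (KRT19) to 1.25 (KRT18) on the log2 scale, while the lung lineage genes NAPSA (1.92) and NKX2-1 (1.53) rose (limma). Of the markers of other cell types, 1 of 6 for fibroblasts reached the minimum (COL1A1, mean 77.7 and 216 without and with the drug), as did 1 of 6 for leukocytes (CD68, 2898 and 3394) and 2 of 5 for endothelium (VWF, 3.94 and 27.4, and PECAM1, 15.7 and 10.4). The others, among them the defining leukocyte gene PTPRC, stayed at a signal of 24.0 or less in every library, and 0 of them were at 0 throughout. The part of these markers in the results below was not tested.

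Sequences next to the start sites of the 10 genes were searched for the letters that FOXO proteins prefer, because the genes were grouped as FOXO factors and targets. RefSeq (GRCh38.p14) gives 17 start sites for them, and each window held 250 bases before and 50 bases from the start. The motif GTAAACA, read on both strands, was found in windows of 4 genes, YPEL3, PIK3IP1, FOXO4 and HBP1. Over all 27305 genes with a window, 4.19% held it, and over all 35116 windows 3.42%. Among tested genes with a window, 4.54% of the 3901 higher with erlotinib held it. The share was 2.94% of the 4082 lower genes and 2.92% of the 3147 that were neither. The related letters ATAAACA were found at 1 start site of FOXO3 (5.16% of all genes) and CAAAACA at that of KLHL24 (6.05% of all genes). The stretches below run 5′ to 3′ along the strand of the gene, with the match in capitals. A match in capitals that reads TGTTTAC or TGTTTTG lies on the opposite strand. They are shown because they are the places in these windows where the letters occur.
YPEL3, chr16:30096195-30096224, minus strand, match from base 1 of the transcript: ctgggctcggtGTAAACAagtccaggcgcc
PIK3IP1, chr22:31292454-31292483, minus strand, match from base 17 at an inner start site: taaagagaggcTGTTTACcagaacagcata
FOXO4, chrX:71095863-71095892, plus strand, match from base 24: cccggcgagtgGTAAACAgagacgtcagga
HBP1, chr7:107168753-107169002, plus strand, the 250 bases before the start: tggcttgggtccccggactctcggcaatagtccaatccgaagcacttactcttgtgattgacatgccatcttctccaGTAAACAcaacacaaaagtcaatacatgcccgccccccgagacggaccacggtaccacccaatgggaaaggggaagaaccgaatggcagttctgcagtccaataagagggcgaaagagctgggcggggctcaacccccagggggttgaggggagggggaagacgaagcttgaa
KLHL24, chr3:183635373-183635622, plus strand, the 250 bases before the start: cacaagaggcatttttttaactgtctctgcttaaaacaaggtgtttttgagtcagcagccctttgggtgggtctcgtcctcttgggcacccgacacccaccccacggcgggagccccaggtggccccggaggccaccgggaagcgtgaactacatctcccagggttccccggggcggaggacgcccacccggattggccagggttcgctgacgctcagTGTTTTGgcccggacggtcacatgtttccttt
FOXO3, chr6:108560672-108560701, plus strand, at an inner start site: ccgagcgaaacATAAACAaacgcacgcaca
A match of letters describes the sequence and does not show that a factor binds there. CCNG2, SESN1, SESN3 and FOXO1 held none of the 3 motifs in these windows.

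With erlotinib, 8 of the 10 genes were higher, 1 was lower and 1 was neither, by limma with Benjamini-Hochberg adjustment and a threshold of 0.05. Among all tested genes 35.3% were higher and 35.4% lower. The 10 genes had a median change of 2.07 log2 units, and all tested genes one of 0.02, and 7 of the 10 rose by at least 1 log2 unit, as did 17.0% of all tested genes. The gene that was lower was SESN1, and the gene that was neither was FOXO3. For 9 genes every erlotinib library lay above every DMSO library, an arrangement found for 36.7% of all tested genes, and for SESN1 every erlotinib library lay below, as for 36.9% of them.

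**Figure D1:**
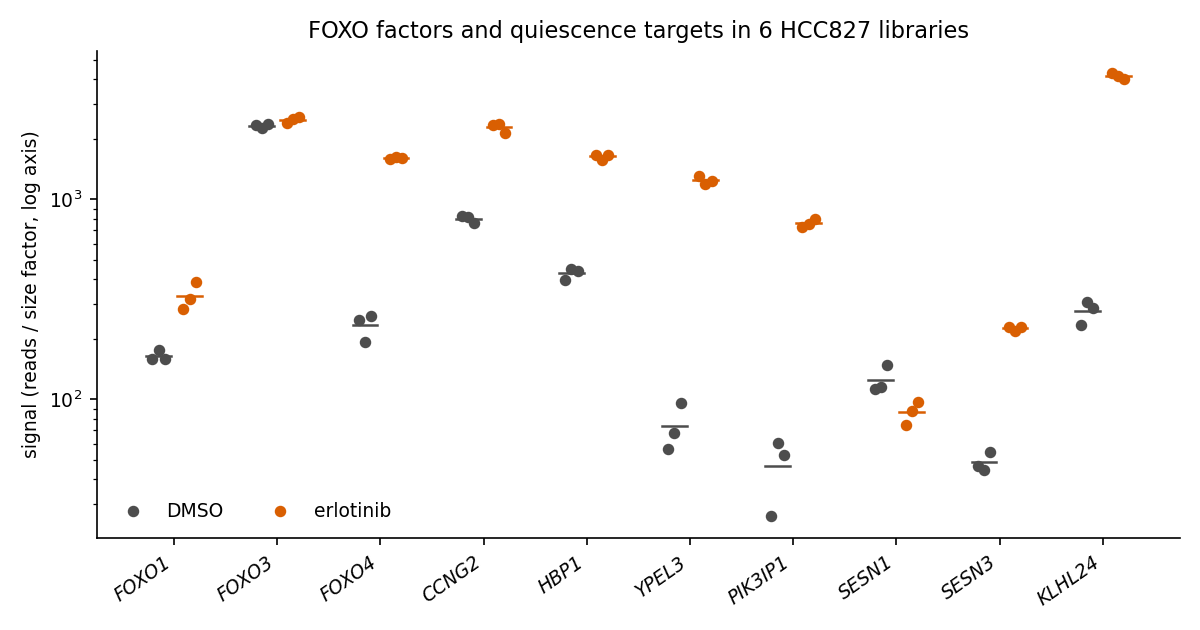
Signal (reads divided by the size factor, log axis) of the 10 genes in each of the 3 DMSO (grey) and 3 erlotinib (orange) libraries, with a line at the mean of each condition. The erlotinib libraries lie above the DMSO libraries for 9 genes, by little for FOXO3, and below them for SESN1.

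Of the 3 FOXO factors, FOXO4 and FOXO1 rose and FOXO3 did not pass the test. FOXO4 (Entrez gene 4303, chromosome X, 71095851 to 71103532 of GRCh38) had a signal of 249.6, 193 and 260.1 in the DMSO libraries and of 1583, 1631 and 1617 in the erlotinib libraries. The lowest erlotinib library was thus far above the highest DMSO library, and the erlotinib libraries lay close together. The log2 fold change of FOXO4 was 2.79 (SE, the standard error, 0.11, limma, adjusted p = 7.6e-15).
FOXO1 (Entrez gene 2308, chromosome 13, 40555667 to 40666641) had a signal of 160.0, 176 and 158 in DMSO and of 283, 317 and 385 with erlotinib. The conditions did not overlap, and the erlotinib libraries were spread more widely than the DMSO libraries. Its log2 fold change was 0.98 (SE 0.15, limma, adjusted p = 5.0e-06).
FOXO3 (Entrez gene 2309, chromosome 6, 108559825 to 108684774) had a signal of 2343, 2279 and 2373 in DMSO and of 2419.6, 2521 and 2571 with erlotinib. Although the libraries did not overlap, the gap was no wider than their spread (SD 47.9 in DMSO and 77.4 with erlotinib). The log2 fold change of 0.10 (SE 0.07, limma, adjusted p = 0.185) had a 95% interval of -0.04 to 0.25. With each library scaled to its total, which raised the median of all tested genes to 0.19, the change of FOXO3 was 0.28 (adjusted p = 0.0011, limma).
Part of the FOXO3 reads cannot be assigned with certainty. The FOXO3 transcript has a near copy on chromosome 17, where 99.3% of its length aligned at an identity of 98.6%. FOXO3B (Entrez gene 2310, chromosome 17, 18667629 to 18682314), the gene annotated there, overlaps ZNF286B. Its signal averaged 705 ± 79.9 without and 806 ± 15.3 with the drug. That is a change of 0.20 log2 units (adjusted p = 0.0773, limma). Only uniquely mapped reads were counted, so reads that fit both places equally well count for neither. The sum of FOXO3 and FOXO3B was 3037 ± 123 in DMSO and 3309.9 ± 91.7 with erlotinib, a log2 difference of 0.12, with an exact two-sided permutation p of 0.10, the smallest that 3 against 3 libraries can give. FOXO6, the remaining member of the family, was not among the genes chosen. It had few reads, 36.5 ± 15.3 in DMSO and 168 ± 28.9 after treatment, and rose with a log2 fold change of 2.24 (adjusted p = 2.7e-07, limma).

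The ratios between the factors were compared as well. In log2 units, FOXO3 to FOXO4 went from 3.32 ± 0.20 in DMSO to 0.64 ± 0.03 with erlotinib, a difference of -2.68. FOXO1 to FOXO4 went from -0.50 ± 0.31 to -2.30 ± 0.21, and FOXO1 to FOXO3 from -3.82 ± 0.11 to -2.94 ± 0.18. These 3 ratios and that of SESN1 to SESN3 were the 4 ratios tested, and each had an exact two-sided permutation p of 0.10, also after adjustment over the 4, which is the smallest this test can give with 3 against 3 libraries. Per length of transcript, FOXO3 had 320 ± 6.57 units of signal per kilobase in DMSO, FOXO4 64.3 ± 9.88 and FOXO1 28.5 ± 1.64. With erlotinib FOXO4 (442 ± 6.87) lay above FOXO3 (343 ± 10.6), and FOXO1 (56.8 ± 8.94) stayed the lowest of the 3. With the reads of FOXO3B added, the level of FOXO3 was 416 ± 16.9 in DMSO and 454 ± 12.6 with erlotinib, and FOXO4 was then not above it but within its spread.

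KLHL24 is an adaptor that brings substrates to a cullin-3 ubiquitin ligase, keratin 14 among them. Its signal (Entrez gene 54800, chromosome 3, 183635623 to 183684519) was 235, 308 and 285 in DMSO and 4288, 4131 and 3977 with erlotinib. The highest DMSO library was thus more than a factor of 10 below the lowest erlotinib library. Of all tested genes 99.3% had a smaller log2 fold change than KLHL24. Of 3 related genes, KLHL3 rose (log2 fold change 1.72, adjusted p = 4.1e-06, limma), KLHL20 had a log2 fold change of -0.01 (adjusted p = 0.915) and a 95% interval of -0.25 to 0.22, and KLHL6 was listed at 0 in every library.

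The 3 genes that slow the cell cycle rose together. CCNG2 encodes cyclin G2, an unconventional cyclin linked to arrest. Its signal (Entrez gene 901, chromosome 4, 77157207 to 77170060) was 828, 814 and 764 in DMSO and 2345, 2389.8 and 2139.9 with erlotinib, without overlap. Cyclin G1 (CCNG1) is its paralog and a target of p53. It averaged 3527 ± 283 without and 3357 ± 209.7 with the drug, which is -0.07 on the log2 scale (adjusted p = 0.410, limma) with a 95% interval of -0.23 to 0.09. CCNG1 overlaps NUDCD2 over 11115 bases, and the signal of NUDCD2 was 1653 in DMSO and 1069 with erlotinib.
HBP1 is a repressor of the HMG box family that acts with the retinoblastoma proteins. Its signal (Entrez gene 26959, chromosome 7, 107169003 to 107202522) was 397, 448 and 439.9 in DMSO and 1673, 1580.0 and 1662 with erlotinib. The conditions were well apart, and the standard error of its log2 fold change was 0.09. HBP1 overlaps COG5 over 1151 bases, and the strand that was counted is not given in the sources used here. The signal of COG5 was 862 in DMSO and 847 with erlotinib.
YPEL3 belongs to a family of small zinc-binding proteins, and it has been linked to senescence and arrest. Its signal (Entrez gene 83719, chromosome 16, 30092314 to 30096213) was 56.7, 67.8 and 96.3 in DMSO and 1309, 1189.9 and 1242 with erlotinib. Its log2 fold change was 4.10 (SE 0.16, limma, adjusted p = 4.3e-15). Of the other members of its family, YPEL1, YPEL2 and YPEL5 rose too. YPEL1 had a log2 fold change of 4.17 and a signal of only 25.1 in DMSO, YPEL2 one of 2.59, and YPEL5 one of 1.92 (adjusted p at most 2.2e-13, limma). YPEL4 was nearly without reads in DMSO (mean signal 4.71, against 32.5 with erlotinib) and reached the minimum only through the erlotinib libraries. Its log2 fold change of 3.03 (SE 0.72, limma, adjusted p = 8.6e-04) is thus not counted as a rise of the family. YPEL1 overlaps PPIL2, whose signal was 828 in DMSO and 700 with erlotinib.

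**Figure D2:**
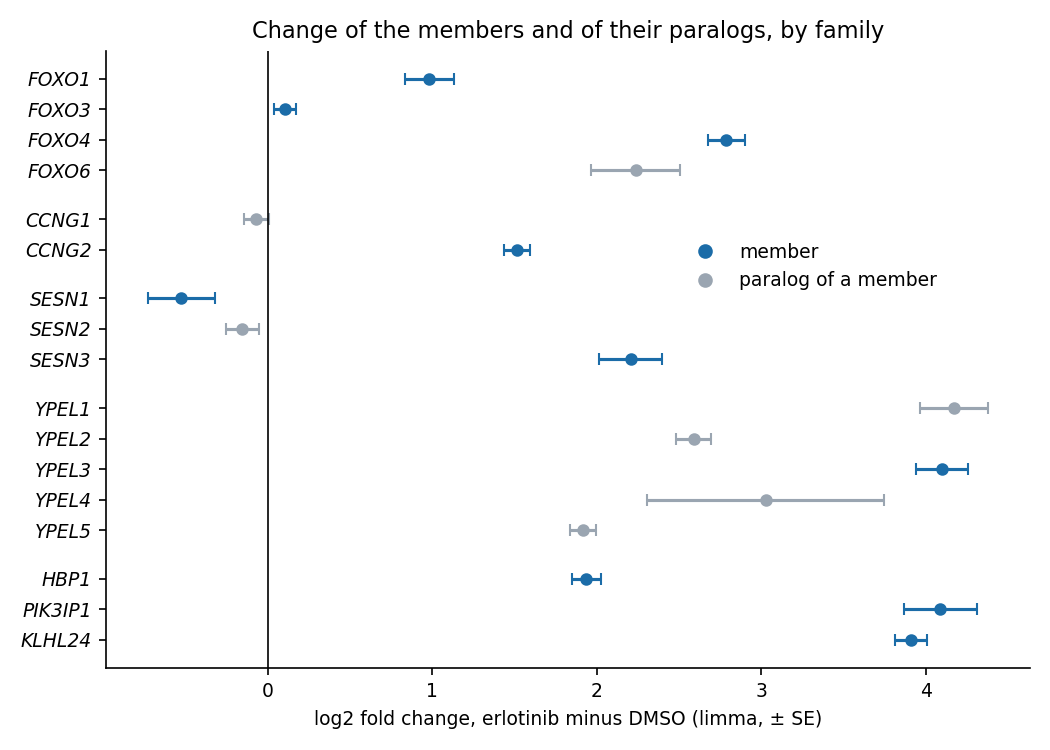
Log2 fold change (erlotinib minus DMSO, limma, bars are standard errors, n = 3 libraries per condition) of the 10 genes (blue), by family. Paralogs of the FOXO, cyclin G, sestrin and YPEL families are grey, and the genes related to KLHL24 are not drawn. All 5 YPEL genes lie above 0, YPEL4 with a mean signal of only 4.71 in DMSO, whereas CCNG1 and SESN2 lie near 0 and SESN1 below it.

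PIK3IP1 is a membrane protein that binds the catalytic subunit of PI3K and restrains it. Its signal (Entrez gene 113791, chromosome 22, 31281593 to 31292534) was 26.1, 60.4 and 52.4 in DMSO and 728, 752 and 796 with erlotinib. One DMSO library was below the other two, with 23 reads, and all 3 were far below the erlotinib libraries. The log2 fold change was 4.09 (SE 0.22, limma, adjusted p = 8.9e-13), and 3.83 with a pseudocount of 10.
The sestrins SESN1 and SESN3 moved in opposite directions. Sestrins are stress proteins that hold back mTORC1, the kinase complex that drives growth, by binding GATOR2, and SESN1 is also known as a target of p53. The signal of SESN3 (Entrez gene 143686, chromosome 11, 95165513 to 95232475) was 46.5, 44.6 and 54.6 in DMSO and 229.8, 219.8 and 231 with erlotinib, a log2 fold change of 2.21 (SE 0.19, limma, adjusted p = 1.8e-09). That of SESN1 (Entrez gene 27244, chromosome 6, 108984309 to 109094846) was 112, 115 and 148 in DMSO and 74.7, 87.1 and 97.4 with erlotinib. The erlotinib libraries of SESN1 lay below the DMSO libraries, with a narrow gap. Its log2 fold change was -0.53 (SE 0.20, limma, adjusted p = 0.0256). The fall of SESN1 was not called in several other settings, among them edgeR (adjusted p = 0.0629) and DESeq2 (0.0967) on 5 libraries, and it was not called without the third DMSO library (-0.40, adjusted p = 0.117, limma) or without the erlotinib library of lowest SESN1 signal (-0.43, adjusted p = 0.106, limma).
The log2 ratio of SESN1 to SESN3 was 1.34 ± 0.08 in DMSO and -1.39 ± 0.19 with erlotinib, so the order of their signals turned around. SESN2, the third sestrin, had a signal of 604 ± 53.7 and 541 ± 22.5 and a log2 fold change of -0.15 (adjusted p = 0.184, limma), with a 95% interval of -0.37 to 0.06. SESN1 lies on chromosome 6 at 299.5 kb from FOXO3, with 2 protein-coding genes between them, and it overlaps ARMC2, whose signal was 35.7 in DMSO and 50.8 with erlotinib.

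Per length, SESN2 had the highest level of the sestrins in both conditions, at 174 ± 15.5 and 156 ± 6.49 units of signal per kilobase. SESN3 stayed far below it after its rise, from 5.08 ± 0.56 to 23.7 ± 0.65. Among the 10 genes, the order of levels per length in DMSO began with FOXO3, HBP1 (151 ± 9.61) and CCNG2 (147 ± 6.15), and the spreads of HBP1 and CCNG2 overlapped. SESN3 was the lowest and PIK3IP1 (19.1 ± 7.41) the next, within the spread of SESN1 (22.1 ± 3.47). With erlotinib the order began with YPEL3 (779 ± 37.4), HBP1 (578 ± 18.0) and KLHL24 (564 ± 21.2), of which HBP1 and KLHL24 lay within each other's spread. FOXO4 (442 ± 6.87) and CCNG2 (419 ± 24.4) followed, also within their spread, then FOXO3, PIK3IP1 (314 ± 14.1), FOXO1, SESN3 and SESN1 (15.3 ± 2.00). FOXO3 thus stood below CCNG2 with erlotinib when counted alone, at 343 units per kilobase, and not with the reads of FOXO3B added, at 454. Since the aligner used does not split reads across introns, genes with many short exons can count for less than their length predicts.

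**Figure D3:**
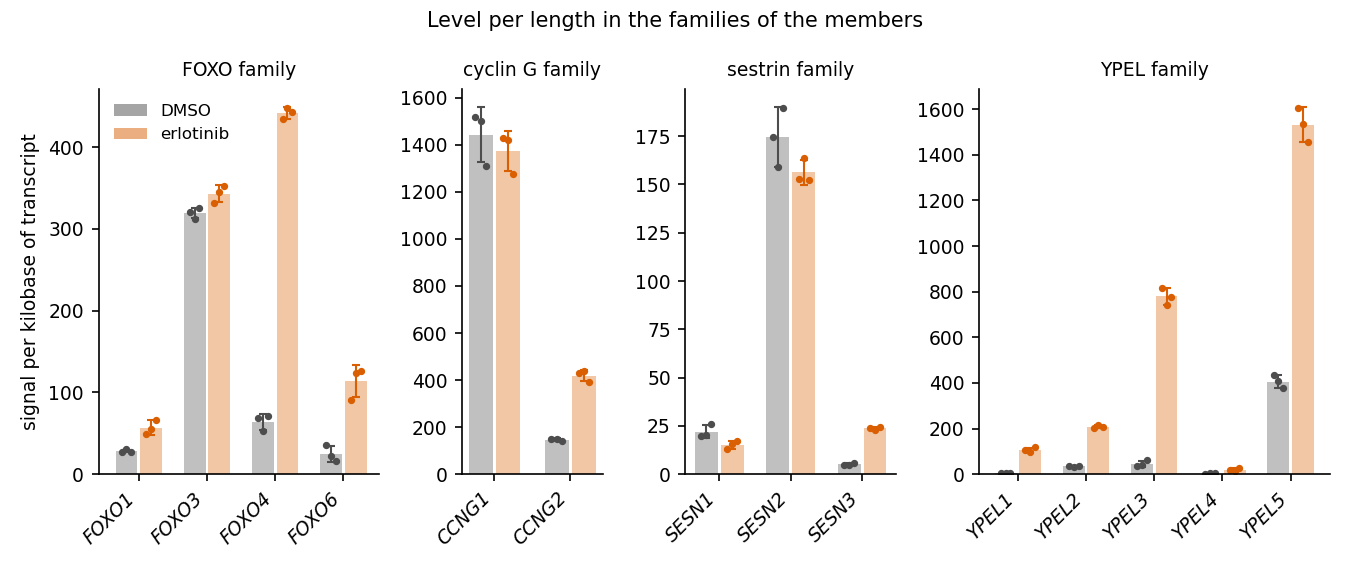
Signal per kilobase of the canonical transcript in the FOXO, cyclin G, sestrin and YPEL families. Bars are means and error bars SD of 3 libraries, points are single libraries, grey is DMSO and orange erlotinib, and each panel has its own axis from 0. With erlotinib FOXO4 (442) lies above FOXO3 counted alone (343), but not above FOXO3 with the reads of FOXO3B added (454, not drawn), and SESN2 and CCNG1 stay the highest of their families.

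Some genes that were not chosen had closely matching profiles over the 6 libraries. Likeness was the Euclidean distance between log2 values, each minus the mean of its DMSO libraries, over 11068 genes whose signal averaged 100 or more, and with 2 conditions it mostly measures an equal change. Nearest to FOXO4 were ARRB1 (distance 0.14 log2 units), MUC1 (0.16) and HIST1H2AC (0.24). Nearest to FOXO1 were CADM1 (0.20), CYP24A1 (0.21) and KIAA1217 (0.22), and nearest to FOXO3 were RNF139, MUM1 and ECE1 (0.05 to 0.07). The mean profile of the 10 genes was matched best by LEPR, FLJ32255 and NINL (0.09 to 0.13).

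Other known FOXO targets were more often higher than lower. Of 39 listed, 33 reached the minimum, and of these 23 were higher, 5 lower and 5 neither (limma, adjusted p under 0.05), and their median change was 0.89 log2 units. For all tested genes the shares were 35.3% higher and 35.4% lower and the median 0.02. The largest rises were those of TNFSF10, the death ligand TRAIL (3.90), PDK4, a kinase that spares glucose (3.20), BCL6, a transcriptional repressor (3.19), and KLF2 (2.97), which had a signal of 12.9 in DMSO. The 4 largest falls were those of BNIP3, a mitophagy receptor (-1.86), IGFBP1 (-1.19), EIF4EBP1, an inhibitor of translation (-0.92), and IRS1, an adaptor of the insulin receptor (-0.66). PRDX3, a mitochondrial peroxidase, was the other lower gene (-0.38). The 5 that were neither were IRS2, the CDK inhibitor CDKN1A, GADD45A, GADD45B and ATG12, with adjusted p-values from 0.0681 to 0.970 (limma). PRDX3 and these 5 were named after their values were seen. FASLG, G6PC, PCK1, TRIM63, PPARGC1A and SELENOP, mostly genes of lymphocytes, liver or muscle, did not reach the minimum.

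The kinases and phosphatases upstream of FOXO were called higher as often as lower. Of 20 tested, 6 were higher, 6 lower and 8 neither (limma), beside 35.3% and 35.4% of all tested genes higher and lower, and the median change was -0.06 log2 units. PIK3R3, a regulatory subunit of PI3K, rose most (1.83), followed by SGK1, a kinase that phosphorylates FOXO3 (0.89). PIK3CA (0.45) and PIK3R2 (0.38) also rose. PHLPP2, a phosphatase that removes phosphate from AKT, fell by 1.33 on the log2 scale, MAPKAP1, a subunit of mTORC2, fell by 0.64, PIK3CB, like PIK3CA a catalytic subunit of PI3K, fell by 0.54, and AKT2 fell by 0.52. MTOR (-0.45) and AKT1 (-0.26) were the other lower genes, and INPP4B (0.33) and RICTOR (0.26) the other higher ones (limma).
Partners and modifiers of FOXO proteins were mostly lower, 14 of 21 tested, with 5 higher and 2 neither (limma) and a median change of -0.65 log2 units, where 35.4% of all tested genes were lower and 35.3% higher. All 6 tested genes for 14-3-3 proteins, which hold phosphorylated FOXO in the cytoplasm, were among the lower genes, with SFN (14-3-3 sigma) falling by 2.51 and the other 5 by 0.59 to 0.97 on the log2 scale. YWHAE, the remaining 14-3-3 gene, was listed at 0 in every library. Whether it was silent or its reads were not counted was not tested. CDK2 fell by 1.82, SKP2, which marks FOXO1 for degradation, by 1.37, and XPO1, the exportin that carries FOXO out of the nucleus, by 1.25. The 5 higher genes include FOXO6, which is itself a FOXO factor and not a partner or modifier. Apart from FOXO6, the largest rises were those of IKBKB (0.71), SIRT2 (0.51) and CREBBP (0.39).
The genes by which sestrins reach mTORC1 were called in both directions, as were all tested genes (35.3% higher and 35.4% lower). SESN1 and SESN3 were kept out of this list. Of its 23 genes, which are SESN2, genes of GATOR, its KICSTOR anchor and its sensor CASTOR1, Rag and TSC genes, RHEB and the catalytic subunits of AMPK, 5 were higher, 6 lower and 12 neither (limma), and the median change was -0.05 log2 units. With each library scaled to its total the number higher was 10. Among the called genes of the list, TSC2 (0.79) and TSC1 (0.50), which restrain mTORC1, rose most, and SEH1L (-1.19) and SEC13 (-0.67), GATOR2 subunits that also serve in the nuclear pore, fell most. The other GATOR2 genes MIOS (-0.43) and WDR24 (0.27) were called in opposite directions, and WDR59 (0.08, adjusted p = 0.445, limma) was neither. RHEB, the activator of mTORC1, fell by 0.50 on the log2 scale.

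Quiescence was also viewed from its other side. DREAM is a repressor complex of pocket proteins that shuts cell cycle genes in resting cells. The list for DREAM and pocket proteins also held CDK inhibitors, which are neither. Of its 15 tested genes, 4 were higher, 8 lower and 3 neither (limma), and the median change was -0.77 log2 units. Among all tested genes 35.3% were higher and 35.4% lower. RBL2, the p130 pocket protein of resting cells and a FOXO target, rose by 1.16, while RBL1, the p107 protein of cycling cells, fell by 1.84. TFDP2 (1.12) and TFDP1 (-1.51), both partners of E2F factors, likewise went opposite ways. LIN9 (-1.48) and LIN52 (-1.39), subunits of the core shared by DREAM and its activating counterpart, also fell. E2F5, a repressive E2F factor, rose by 0.63, from a mean signal of 166 to 256. E2F4, another E2F gene of this list, went the other way and fell by 1.11, from 4996 to 2313 (adjusted p = 5.9e-12, limma). It was named after its values were seen. The CDK inhibitor CDKN1B, a FOXO target counted among the 4 higher genes, rose by 0.62. Of 24 proliferation genes and targets of FOXM1, a forkhead factor that opposes FOXO, all 24 were lower, and their median change was -2.51 log2 units. FOXM1 itself fell by 2.05 on the log2 scale, and MYBL2 (-3.38), AURKB (-3.33), CCNE2 (-3.16) and CDK1 (-3.03) fell most. FOXM1 was named here for its place in the forkhead family, outside the rule for names. Cells of different phases of the cycle were not separated, so fewer cycling cells and less RNA per cell cannot be told apart.

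**Figure D4:**
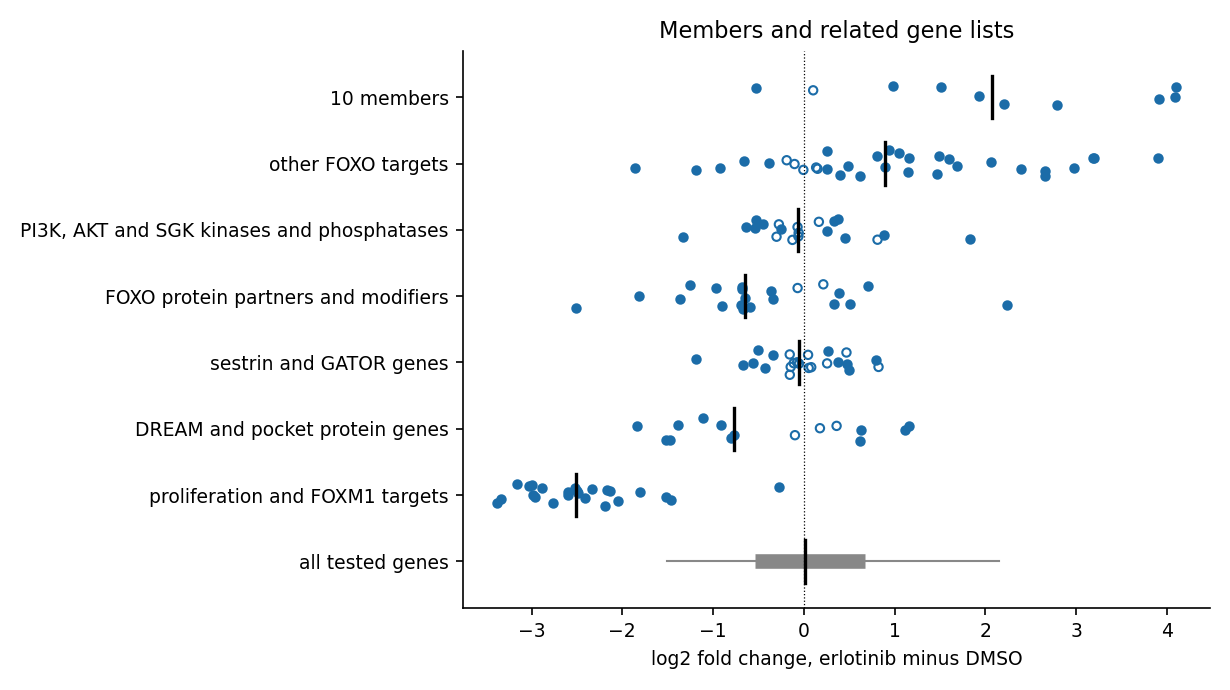
Log2 fold change (erlotinib minus DMSO) of the 10 genes and of 6 related lists, 1 point per tested gene, filled where the adjusted p-value was under 0.05 (limma) and open otherwise, with a black line at the median. The bottom bar gives the 25th to 75th percentile of all tested genes and its thin line the 5th to 95th, so the medians of 2.07 for the 10 genes and -2.51 for the proliferation genes can be set beside it.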

How the data were processed

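Per the methods and the submitters' processing notes, paired-end reads were mapped by the authors to GRCh38 with Bowtie2 2.3.4, and uniquely mapped reads were counted per gene with featureCounts 1.6.3. The deposited values are signal, not whole counts. Within each library 100% of the values were whole multiples of the worth of 1 read (tolerance 0.001 read), which gave back reads and size factors. Chi-square per degree of freedom between libraries of a condition was 4.05 to 22.9, above sampling noise, so none were merged as repeats of a single library. This does not show separate cultures. The 3 erlotinib columns carry numbers of no sample title and were assigned to the group only.

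The signal was tested with limma 3.58.1 (R 4.3.3) on log2(signal + 1) with a variance trend, for genes of mean signal at least 10, two-sided, with Benjamini-Hochberg adjustment over all 14215 and a threshold of 0.05. The study used DESeq2 1.18.1, and count tests were alternatives here. edgeR 4.0.16 and DESeq2 1.42.0 were run on the reads of 5 libraries, leaving out the erlotinib library numbered 5. Its values were whole multiples too, with 1 read worth 0.99 units, and were not rounded numbers. It was kept out of count tests only because an automatic check of units took them for rounded values. The fits were tested on simulated data. Paralog ratios were tested by exact permutation (scipy 1.17.1). Copies were searched with minimap2 2.31-r1302 against GRCh38 with alternate contigs, using canonical GENCODE 44 transcripts, which also gave lengths. Except for FOXO3, 0 of the 10 genes had a copy. Positions and promoters are from RefSeq.

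The 10 genes and the lists, written from general knowledge, were chosen with earlier results of these data known. Named are the 10 genes, their paralogs, some of the genes that overlap these, and the sestrin and PI3K lists. Also named are the 4 largest rises and falls of other lists, and the 3 nearest profiles.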

Additional observations from a re-analysis of the deposited data

How the results depend on the processing

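Log2 fold changes of the 10 genes and counts of calls were recomputed under 15 alternatives and the 4 paralog ratios under 7. Motifs and likeness were not recomputed, and levels per length only for the sum of FOXO3 and FOXO3B. Among the 15, edgeR and DESeq2 on 5 libraries were added after seeing the data, as was the separate sum of FOXO3 and FOXO3B. Of the 10 genes, 8 were called higher in all alternatives but scaling to the total, with 9. The 8 higher genes kept their call throughout, with log2 fold changes between 0.86 (FOXO1) and 4.32 (PIK3IP1). FOXO3 passed the threshold with each library scaled to its total (0.28). SESN1 did not pass it with that scaling (-0.35, adjusted p = 0.135), without a filter (-0.53, adjusted p = 0.0523), at an adjusted p under 0.01, with edgeR (-0.52) or with DESeq2 (-0.53), and without single libraries it was -0.61 to -0.40. Its adjusted p failed the threshold without DMSO library 3 and without erlotinib library 4. The number of genes called lower was then 0 in place of 1 in each of these settings, and 0 to 1 without single libraries. Sestrin and GATOR genes called higher numbered 10 with scaling to the total, against 5. Among the paralogs, 0 to 1 were lower without single libraries, the 1 being without DMSO library 2. Of 9 paralogs tested, 6 were called higher in the main fit, beside 35.3% of all tested genes. The 6 include YPEL4, which reached the minimum only through the erlotinib libraries. With a signal of at least 10 in every library, which YPEL4 did not have, 5 were called higher. The 4 paralog ratios kept their direction under a pseudocount of 10 and without single libraries. The cause of these changes was not tested. Of all tested genes 4323 to 6156 were higher and 3955 to 5080 lower. A filter of a signal of at least 10 in every library stood for the planned filter on reads. The planned edgeR and DESeq2 tests on all 6 libraries were not run. No paired analysis was possible because the erlotinib columns carry the numbers 4 to 6, which match no replicate number of the labels. Values of PIK3IP1, YPEL3 and SESN3 in DMSO rest on few reads.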
